A study of Homo sapiens with 5 samples.

Results

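PRC1 is the Polycomb repressive complex that places a single ubiquitin on histone H2A. The 9 genes described here (RING1, RNF2, BMI1, CBX2, CBX6, CBX7, CBX8, PHC1 and PHC2) encode subunits of its canonical form. They were taken by symbol from the deposited count table, which holds 30476 Ensembl gene identifiers, and all 9 were found in it. The rule uses gene symbols and no measured value.

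RNA-seq had been performed on TOV21G, an established ovarian clear cell carcinoma line that carries mutated ARID1A, a subunit of the SWI/SNF chromatin remodeling complex. The 5 libraries held 1 of parental cells, never selected with the drug, and 4 of EZH2 inhibitor-resistant (EIR) cells. EIR cells had been selected from the parental line in GSK126, an inhibitor of EZH2, at concentrations raised in steps from 5 to 20 uM, after which clones were picked. Clones 3 and 4 were each profiled untreated and treated with GSK126, so that every group carried the ARID1A mutation and no parental library was treated. The dose and time of GSK126 in the treated libraries are not given in the sources used here. Each clone is 1 pick from 1 line, and nothing states that the 2 libraries of a clone came from separate cultures.

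PRC1 acts together with PRC2, whose catalytic subunit EZH2 methylates lysine 27 of histone H3. In canonical PRC1, RING1 or RNF2 is the E3 ubiquitin ligase, BMI1 (also called PCGF4) is the RING finger partner of the ligase, a CBX protein binds methylated H3K27 through its chromodomain, and a PHC protein links complexes through its SAM domain. The paralogs within each of these positions can replace each other in the complex, so the levels of the paralogs are given beside each other.

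For 3 of the genes on which the comparisons below turn, RNF2, PHC2 and BMI1, the 250 bases before an annotated start are shown. They are from RefSeq on GRCh38.p14, a different build from the hg19 used for the counts. The windows lie at chr1:185045308-185045557 (plus strand) for RNF2, chr1:33431096-33431345 (minus strand) for PHC2 and chr10:22320849-22321098 (plus strand) for BMI1. Capitals mark CACGTG, the E-box letters, which read the same on both strands, and GCCATNTT, the core letters bound by YY1, searched on both strands. The motifs were chosen after the sequences had been seen.
RNF2: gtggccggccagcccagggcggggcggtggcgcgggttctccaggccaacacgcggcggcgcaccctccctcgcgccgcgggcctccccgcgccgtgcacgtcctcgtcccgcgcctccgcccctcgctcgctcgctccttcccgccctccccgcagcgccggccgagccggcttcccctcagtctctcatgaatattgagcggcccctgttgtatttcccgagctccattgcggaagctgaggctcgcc
PHC2: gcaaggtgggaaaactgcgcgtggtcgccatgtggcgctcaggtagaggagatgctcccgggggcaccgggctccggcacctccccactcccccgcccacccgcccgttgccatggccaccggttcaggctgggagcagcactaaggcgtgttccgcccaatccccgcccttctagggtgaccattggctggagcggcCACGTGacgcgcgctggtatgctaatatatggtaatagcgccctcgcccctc
BMI1: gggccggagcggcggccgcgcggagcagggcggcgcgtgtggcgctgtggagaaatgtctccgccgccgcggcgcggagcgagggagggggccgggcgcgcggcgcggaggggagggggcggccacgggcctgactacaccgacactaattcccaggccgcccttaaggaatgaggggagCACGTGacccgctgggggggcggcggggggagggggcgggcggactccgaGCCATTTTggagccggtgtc

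RefSeq windows were found for 7 of the 9 genes, 10 windows in all. None was found for CBX8 or for CBX2, which is also called below and so could not be shown. CACGTG stood in 3 of the 10 windows (BMI1, PHC2 and CBX6) and in 6.35% of 35116 promoter windows of the same length, and GCCATNTT stood in 1 (BMI1) and in 3.86%. The 3 printed windows had a GC content of 74.4% (RNF2), 66.8% (PHC2) and 76.8% (BMI1), against a median of 58.0% over all promoter windows. PHC2 and BMI1 each had another window, at another annotated start, that is not printed. Those windows had a GC content of 80.4% (PHC2) and 91.6% (BMI1) and held neither CACGTG nor GCCATNTT. No binding was measured at these letters here.

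Total counts per library ranged from 25479238 to 30764963, and every one of the 9 genes had at least 54 counts in each library. The line markers PAX8, KRT8 and KRT18 were high in all 5 libraries. KRT7, a further line marker, had only 81 counts in the parental library and 150 to 199 in the EIR libraries. The clear cell marker NAPSA was low (2 to 53 counts). EPCAM had 0 and 1 counts in the libraries of clone 4 against 398 to 498 in the others. The summed normalized count of 4 markers of leukocytes and fibroblasts (PTPRC, CD68, COL1A1 and LUM) was 103 to 132 in every library. The parental library stood apart in how counts depended on base composition. Over 11564 genes expressed at 100 or more normalized counts on average, the median log2 ratio of the 4 EIR libraries to the parental library fell from 0.43 for genes under 40% GC to -0.001 at 40 to 50%, -0.30 at 50 to 60% and -0.48 from 60% upward. Relative to the mean of the 5 libraries, the parental library was at -0.34 in the lowest and 0.38 in the highest of these bins, whereas the EIR libraries lay between -0.02 and 0.16 and between -0.17 and -0.03. Biology and library preparation cannot be told apart here with 1 parental library. Values normalized for GC content are therefore given beside the comparison of each of the 9 genes with parental cells.

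The levels of the 9 genes spanned more than an order of magnitude. Per kilobase of canonical transcript, the mean normalized count over the 5 libraries was 552 for CBX6, 499 for PHC2, 449 for RNF2, 289 for BMI1, 264 for RING1, 145 for PHC1, 91.7 for CBX8, 34.3 for CBX2 and 18.2 for CBX7. The ranges over the libraries overlapped between CBX6 (462 to 666), PHC2 (409 to 746) and RNF2 (322 to 515), so that the order of these 3 did not exceed the spread. BMI1 (195 to 472) overlapped with all of them and with RING1 (226 to 305), whereas RING1 lay below RNF2 in every library. PHC1 (123 to 181) lay below RING1 and above CBX8 (73.8 to 116) in all libraries. CBX2 (24.0 to 60.3) and CBX7 (13.0 to 29.4) overlapped with each other, and both lay below CBX8. CBX6 thus had the most RNA among the 4 CBX genes described here, and in bulk RNA fewer cells with a transcript and less of it per cell cannot be told apart.

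**Figure D1:**
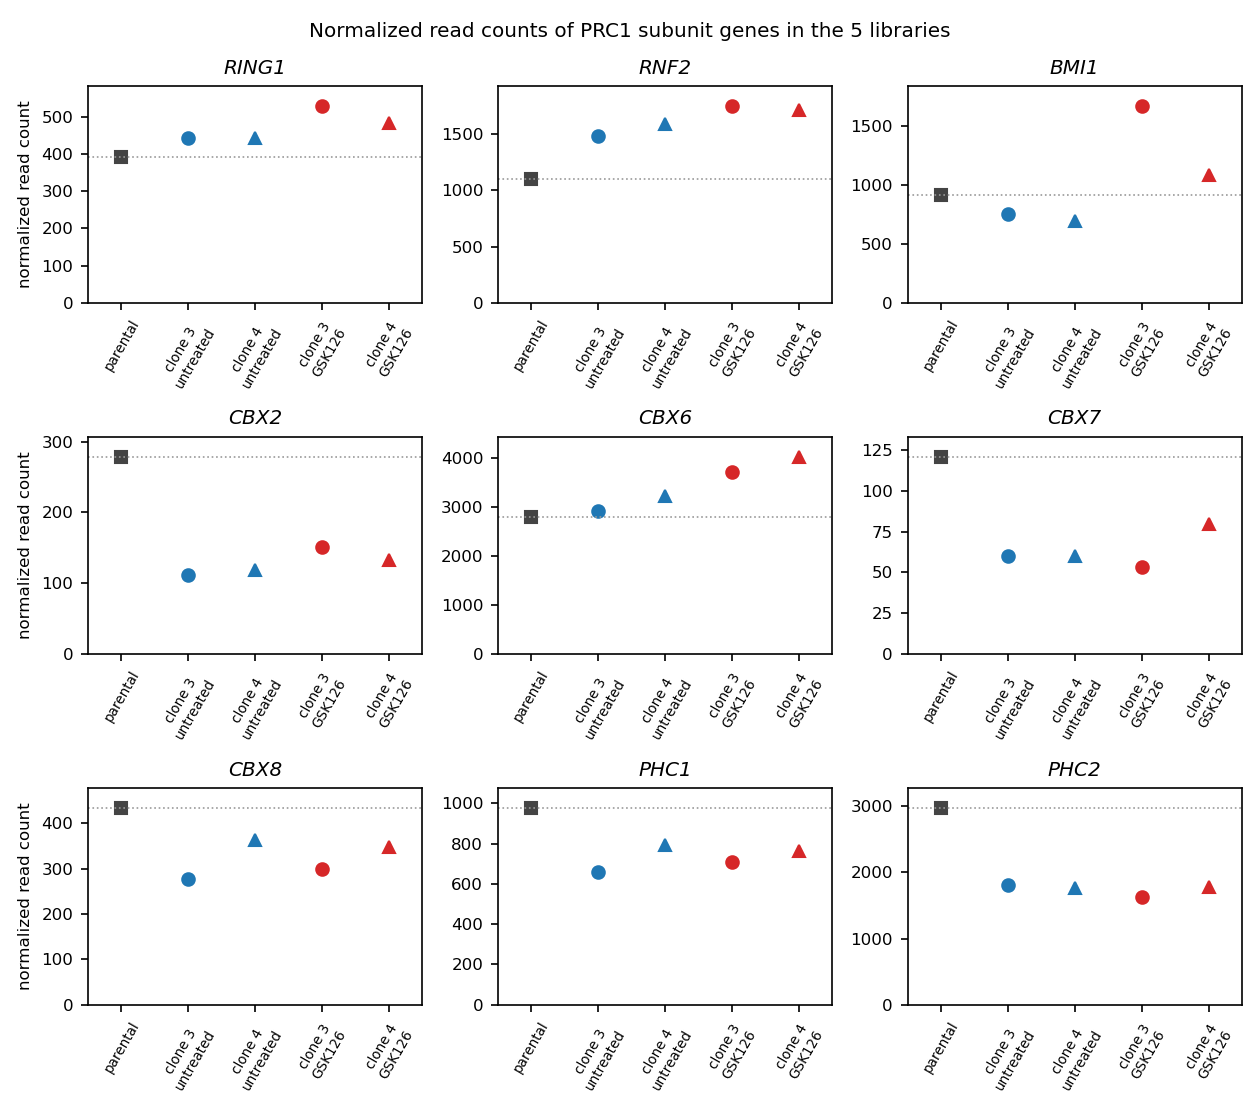
Normalized read counts (count divided by the size factor of the library, axis from 0) of the 9 genes in each of the 5 libraries, with the dotted line at the parental value. RNF2, RING1 and CBX6 lie above and PHC2, CBX2, CBX7, CBX8 and PHC1 lie below the line in all 4 EIR libraries, and BMI1 lies above it in the GSK126-treated libraries only.

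The first question was whether these genes differed between EIR and parental cells. RNF2 was higher in EIR cells, at 1.49-fold, and PHC2 and CBX2 were lower, at 0.586-fold and 0.461-fold, and the other 6 genes did not pass the test. The DESeq2 Wald test (two-sided, Benjamini-Hochberg adjusted p under 0.05) called 3 of the 9 genes, and over the whole table it called 25.5% of the 16288 genes that received an adjusted p, 2014 higher and 2143 lower. The share among the 9 genes is near that background. The median log2 fold change of the 9 genes was -0.42, against 0.003 over all genes tested. With GC normalization these medians were -0.09 and 0.09. None of the 3 calls held once the counts were normalized for GC content, as given gene by gene below. With 1 parental library, the test sets 1 value against the spread between EIR libraries, and a permutation of 1 against 4 libraries cannot give a p below 0.2.

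RNF2 (ENSG00000121481, GRCh37 chr1:185014658-185071735, plus strand) encodes RING1B, the ligase found in most PRC1 complexes. Its normalized read count was 1098 in parental cells, 1484 and 1593 in untreated clones 3 and 4, and 1754 and 1714 in the same clones treated with GSK126. All 4 EIR libraries lay above the parental library, with a mean of 1636 ± 122 (SD, n = 4 libraries of 2 clones). The log2 fold change was 0.58 (SE 0.19, adjusted p = 0.0130 in DESeq2). With the 2 libraries of each clone summed it was 0.58 as well, and RNF2 was not called. The canonical transcript of RNF2 has a GC content of 36.0%, the lowest of the 9 genes. The 1062 expressed genes within 2 percentage points of this GC content had a median log2 ratio of 0.55. With GC normalization the RNF2 fold change was -0.06 (SE 0.20, adjusted p = 0.8895), so that the direction turned and the call was lost. The call was also lost with the quasi-likelihood test of edgeR (adjusted p = 0.0786), without the GSK126-treated clone 3 library (adjusted p = 0.1007 in DESeq2) and without the untreated clone 4 library (adjusted p = 0.0743).

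RING1 (ENSG00000204227, chr6:33176277-33180499, plus strand) encodes RING1A, the second ligase. Its counts were 394 in parental cells, 444 and 445 in the untreated clones 3 and 4, and 531 and 484 in the treated ones. All EIR libraries lay above parental cells, by less than for RNF2, and the log2 fold change of 0.27 (SE 0.23) did not pass the test (adjusted p = 0.4219 in DESeq2). The transcript has 61.6% GC, at which expressed genes had a median log2 ratio of -0.44. With GC normalization RING1 was 0.80 higher on the log2 scale (SE 0.22, adjusted p = 0.0035). RNF2 and RING1 therefore exchanged their calls between the normalizations.

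BMI1 (ENSG00000168283, chr10:22610028-22620413, plus strand) did not separate EIR from parental cells. The parental count was 913, the untreated clones 3 and 4 had 754 and 690, and the treated ones had 1671 and 1082, so that 2 EIR libraries lay on each side. The log2 fold change was 0.20 (SE 0.51, adjusted p = 0.8175 in DESeq2), with a 95% interval of -0.795 to 1.198. It was -0.09 with GC normalization and -0.12 without the GSK126-treated clone 3 library. Expressed genes within 5 Mb of BMI1 had a median log2 ratio of -0.59 (26 genes), and the 448 on chromosome 10 had -0.44.

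CBX2 (ENSG00000173894, chr17:77751947-77761782, plus strand), a CBX paralog whose protein can compact nucleosomes, showed the largest fold change of the 9 genes in the DESeq2 comparison with size factors, though not with GC normalization, where RING1 and CBX6 changed more. Its raw read count was 277 in parental cells, 120 and 117 in untreated clones 3 and 4, and 153 and 126 in the treated clones. All 4 EIR values lay below the parental value. Normalized, the parental library stood at 279 and the EIR libraries at 129 ± 17.6 (SD, n = 4 libraries of 2 clones). The log2 fold change was -1.12 (SE 0.33, adjusted p = 0.0051 in DESeq2). It was -0.64 (SE 0.33, adjusted p = 0.1624) with GC normalization, -1.13 (adjusted p = 0.0643) in edgeR, and -1.05 (adjusted p = 0.0502 in DESeq2) without the untreated clone 3 library. With the 2 libraries of each clone summed, CBX2 was at -1.11 and was not called. The 1181 expressed genes within 2 percentage points of its 59.5% GC had a median log2 ratio of -0.43.

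CBX7 (ENSG00000100307, chr22:39516172-39548685, minus strand), a CBX paralog best known for silencing the INK4A locus, was the lowest expressed. It was at 121 normalized counts in the parental library and 60.18, 60.02, 53.37 and 79.35 in untreated clone 3, untreated clone 4, treated clone 3 and treated clone 4. All 4 lay below parental cells, yet the log2 fold change of -0.94 (SE 0.44) did not pass (adjusted p = 0.1023 in DESeq2). With GC normalization it was -0.46 (SE 0.46, adjusted p = 0.5407). This gene had 54 to 120 raw counts per library, and the 95% interval of its fold change with size factors ran from -1.80 to -0.08.

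CBX8 (ENSG00000141570, chr17:77765931-77775482, minus strand) lies beside CBX2. Its counts were 434 in parental cells, 277 and 362 in the untreated clones, and 299 and 347 in the treated clones. All EIR values were lower than the parental one, and the log2 fold change of -0.43 (SE 0.27, adjusted p = 0.2515 in DESeq2) did not pass the test. With GC normalization it was -0.01, with the EIR libraries on both sides of the parental one.

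CBX6 (ENSG00000183741, chr22:39257427-39268254, minus strand), the most abundant of the 4 CBX transcripts described here, pointed the other way from CBX2, CBX7 and CBX8. It had 2795 counts in parental cells, 2921 and 3234 in untreated clones 3 and 4, and 3715 and 4030 in the treated clones. All EIR libraries were above the parental one, although untreated clone 3 was close to it. The log2 fold change was 0.31 (SE 0.25, adjusted p = 0.3759 in DESeq2) and 0.78 (SE 0.26, adjusted p = 0.0197) with GC normalization. CBX6, CBX7 and CBX2 have almost the same GC content (59.3%, 59.3% and 59.5%), so that a correction by GC content moves the 3 genes alike and leaves the gap between them.

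PHC2 (ENSG00000134686, chr1:33789224-33896696, minus strand), a polyhomeotic subunit, had the smallest adjusted p. It had 2979 normalized counts in parental cells against 1808 and 1767 in untreated clones 3 and 4 and 1633 and 1776 in the treated clones. The EIR libraries were close together (1746 ± 77.6, SD, n = 4 libraries of 2 clones), and all lay well below the parental library. The log2 fold change was -0.77 (SE 0.16, adjusted p = 1.69e-05 in DESeq2), and PHC2 was the only gene of the 9 that edgeR also called (adjusted p = 0.0264), against 8.48% of 21201 genes tested there. With GC normalization it was -0.27 (SE 0.20, adjusted p = 0.3895), and the 1118 expressed genes within 2 percentage points of its 60.4% GC had a median of -0.44.

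PHC1 (ENSG00000111752, chr12:9066492-9094063, plus strand), also polyhomeotic, stood at 978 normalized counts in the parental library, 660 and 795 in the untreated clones, and 711 and 765 in the treated clones. All EIR values were lower than the parental value. The log2 fold change of -0.42 (SE 0.21, adjusted p = 0.1256 in DESeq2) did not pass the test, and it was -0.14 with GC normalization. PHC1 overlaps M6PR on the opposite strand (3658 to 5047 counts), and its processed pseudogene PHC1P1 held 91 to 255 counts. With the pseudogene added to it, the log2 fold change was -0.50 (adjusted p = 0.0532 in DESeq2).

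For 8 of the 9 genes, all but BMI1, the 4 EIR libraries lay on 1 side of the parental library. The same held for 72.5% of the 11564 expressed genes, so that such a separation was the common case in this table. With GC normalization it held for 5 of the 9 genes (CBX2, CBX7 and PHC2 lower, CBX6 and RING1 higher), against 69.0% of expressed genes. Under that normalization 2 of the 9 genes were called in DESeq2, CBX6 and RING1, both higher, against 18.6% of all genes tested.

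**Figure D2:**
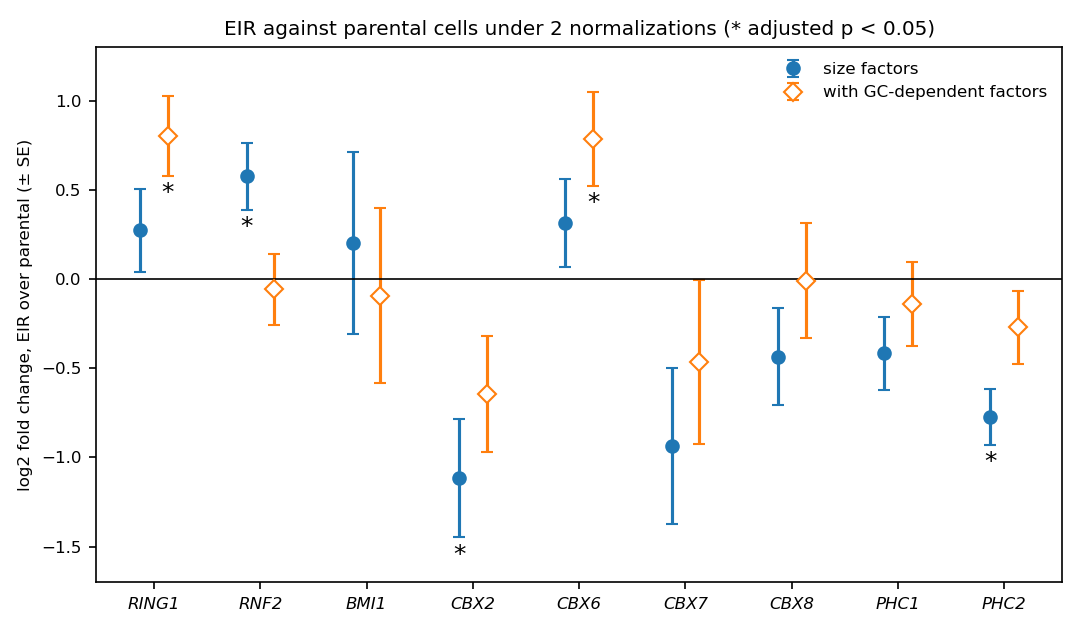
Log2 fold change of EIR over parental cells for the 9 genes (DESeq2, bars ± SE), with plain size factors (filled circles) and with GC-dependent normalization factors (open diamonds). Asterisks mark an adjusted p under 0.05 and stand at RNF2, CBX2 and PHC2 with size factors and at RING1 and CBX6 with GC-dependent factors.

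**Figure D3:**
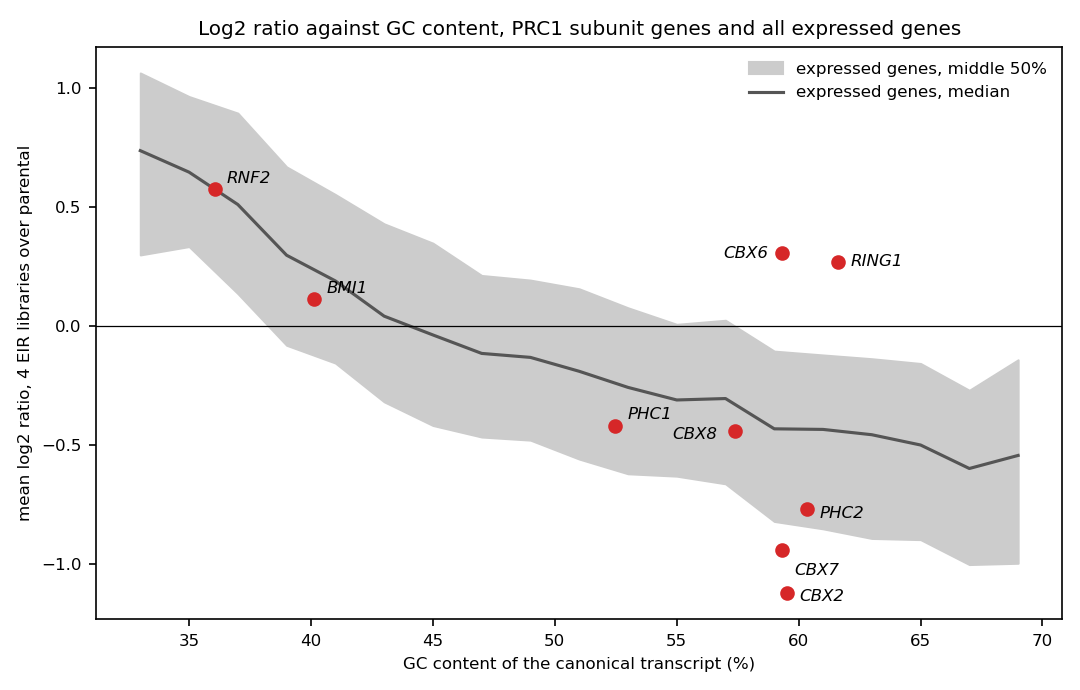
Mean log2 ratio of the 4 EIR libraries to the parental library (vertical axis) against the GC content of the canonical transcript in percent (horizontal axis) for the 9 genes (red points), with the median (line) and middle 50% (grey band) of expressed genes in bins of 2 percentage points. RNF2, BMI1, PHC1, CBX8 and PHC2 lie inside the band, CBX6 and RING1 lie above it, and CBX2 and CBX7 lie below it.

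The plot of log2 ratio against GC content sets each gene beside genes of like composition. RNF2 at 0.57 was close to the median of its neighbours in GC content (0.55), as was CBX8 at -0.44 (median -0.37). BMI1 at 0.11 (median 0.23) also lay within the middle 50%. PHC1 at -0.42 (median -0.24) and PHC2 at -0.77 (median -0.44) were lower than the median of their neighbours but within the middle 50%. CBX2 at -1.12 and CBX7 at -0.94 lay below neighbours at -0.43, whereas CBX6 at 0.30 and RING1 at 0.27 lay above neighbours at -0.43 and -0.44. These ratios are means of log2 values and differ slightly from the fitted fold changes.

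A share within a paralog group does not depend on the size factor of a library. Among the 4 CBX genes described here (CBX2, CBX6, CBX7 and CBX8), CBX6 held 77.02% of the summed counts in parental cells (95% Wilson interval 75.6 to 78.4%) and 86.7%, 85.7%, 88.1% and 87.8% in untreated clone 3, untreated clone 4, treated clone 3 and treated clone 4. CBX2 held 7.69% in parental cells (6.86 to 8.60%) and 2.905 to 3.58% in the EIR libraries. CBX8 held 11.96% in parental cells (10.9 to 13.1%) and 7.10 to 9.59% in EIR cells. The summed normalized count of the 4 CBX genes was 3629 in parental cells and 3369 to 4589.5 in EIR cells, on both sides of the parental value. GC normalization could hardly change these shares, since the transcripts of the 4 genes have between 57.4% (CBX8) and 59.5% (CBX2) GC. CBX6 then held 76.8% in parental cells and 85.8 to 88.0% in EIR cells. No test was run on shares, and the intervals cover counting error only.

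Among the polyhomeotic genes, PHC2 held 52.8% of the counts in parental cells (51.5 to 54.1%) and 33.7%, 28.5%, 30.6% and 26.2% in untreated clone 3, untreated clone 4, treated clone 3 and treated clone 4. PHC3, the third paralog, held 29.9% in parental cells (28.7 to 31.1%) and 54.0%, 58.7%, 56.1% and 62.5% in the EIR libraries in the same order. PHC2 thus held the most counts in the parental library and PHC3 in each EIR library. A longer transcript yields more counts, and per kilobase PHC2 was the highest of the 3 in every library, at 746 normalized counts in the parental library and between 409 and 453 in the EIR libraries. PHC3 per kilobase was at 133 in the parental library and between 229 and 335 in the EIR libraries. PHC3 transcripts have 37.8% GC and those of PHC2 60.4%, and with GC normalization the gap narrowed. PHC2 then held 42.8% in parental cells and 27.9 to 35.0% in EIR cells, and PHC3 held 41.3% and 52.3 to 60.7%. The summed normalized count of the 3 genes was 5641 in parental cells and 5343 to 6783 in EIR cells.

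Of the 2 ligase genes, RNF2 held 73.6% of the counts in parental cells (71.3 to 75.8%) and 76.8 to 78.2% in the EIR libraries. With GC normalization the order turned, at 84.2% in parental cells and 73.0 to 76.0% in EIR cells. The summed normalized count of RING1 and RNF2 was 1492 in parental cells and 1928 to 2285 in EIR cells.

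**Figure D4:**
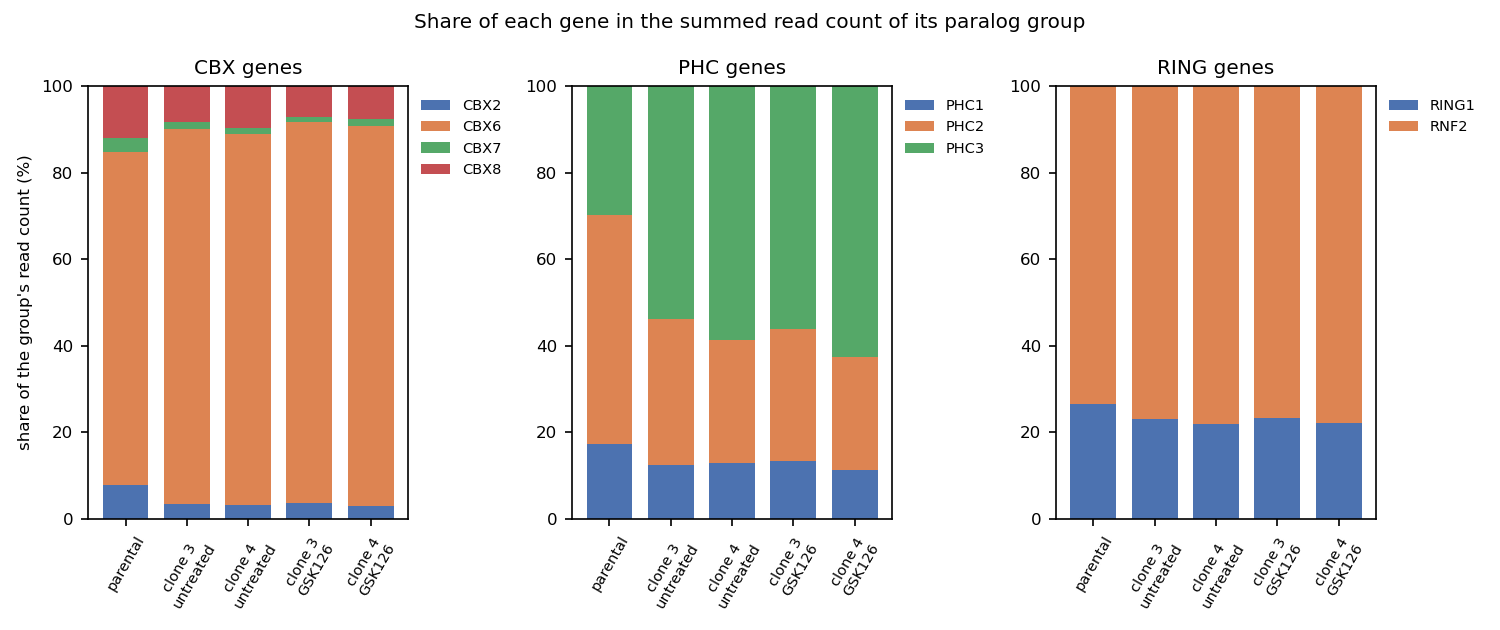
Share of each gene (stacked bars, percent of counts from 0 to 100) in the summed read count of its paralog group, for the 4 CBX, the PHC and the RING genes in each of the 5 libraries. CBX6 holds 77.02% of the counts of the 4 CBX genes in the parental library and at least 85.7% in each EIR library, and PHC3 holds more counts than PHC2 in each EIR library.

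Each clone was next compared with parental cells on its own, in a fit that takes the spread from the 2 libraries of a clone. RNF2 was higher and CBX2 and PHC2 were lower in each clone, and no other gene of the 9 passed in DESeq2. In clone 3 the log2 fold changes were 0.56 (SE 0.21, adjusted p = 0.0254) for RNF2, -1.09 (SE 0.42, adjusted p = 0.0364) for CBX2 and -0.79 (SE 0.19, adjusted p = 1.73e-04) for PHC2. In clone 4 they were 0.59 (SE 0.21, adjusted p = 0.0158), -1.15 (SE 0.42, adjusted p = 0.0245) and -0.75 (SE 0.19, adjusted p = 3.71e-04). The same fit called 29.2% of all genes tested for clone 3 and 32.9% for clone 4. The 2 comparisons share the parental library. The CBX2 call was lost in either clone without any 1 EIR library (adjusted p = 0.0734 to 0.4002 in clone 3 and 0.0952 to 0.1448 in clone 4, DESeq2). The RNF2 call was lost in clone 3 without either of its libraries, and in clone 4 without its treated library or either library of clone 3. The PHC2 call was lost in clone 3 without its treated library (adjusted p = 0.0855). In edgeR the 3 genes were called in both clones, and CBX7, CBX8 and PHC1 were lower in clone 3 as well (adjusted p = 0.0393, 0.0346 and 0.0262), against 27.1% of genes called in edgeR for clone 3 and 29.5% for clone 4. With GC normalization the calls were CBX6 and RING1 in each clone, both higher, against 25.5% of genes for clone 3 and 27.0% for clone 4.

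The difference between the clones was tested directly in the 4 EIR libraries, with treatment as covariate. None of the 9 genes differed between clone 4 and clone 3 in DESeq2 or in edgeR, whereas 9.81% of all genes tested did in DESeq2. None of the 9 had an unadjusted p under 0.05 in DESeq2. The largest log2 fold change was that of BMI1, at -0.39 (SE 0.22, adjusted p = 0.3715 in DESeq2), and its 95% interval ran from -0.82 to 0.05. For the others the fold changes lay between -0.07 (RING1) and 0.29 (CBX8). The intervals were narrowest for CBX6 (-0.21 to 0.46) and PHC2 (-0.33 to 0.41) and widest for CBX7 (-0.88 to 1.43), and a difference of 2-fold between the clones lay outside the interval of every gene but CBX7.

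GSK126-treated and untreated EIR cells were compared last. No gene of the 9 passed the test in DESeq2 or edgeR, and in the whole table only 1 gene did in DESeq2 (0.00335%), with 117 at an unadjusted p under 0.05, and 0 in edgeR. BMI1 stood out by size, more so in clone 3 than in clone 4. Its normalized count was 754 untreated and 1671 treated in clone 3, and 690 and 1082 in clone 4. The log2 ratios were 1.15 and 0.65, where the SD of this ratio over expressed genes was 0.24 and 0.39. Both treated libraries were above both untreated ones, and above the parental library. Of the 11564 expressed genes, 8 (BMI1 included) had a ratio at least as high as that of BMI1 in both clones. Taken clone by clone, 16 genes did in clone 3 and 581 in clone 4. The fitted log2 fold change was 0.92 (SE 0.31, unadjusted p = 0.0030, adjusted p = 0.9999 in DESeq2).

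The clone number links the treated and the untreated library of a clone, and the comparison was repeated with it as a replicate block. With the replicate block the log2 fold change of BMI1 was 0.89 (adjusted p = 0.2842 in DESeq2), and 4 genes were called in the whole table (0.0134%). With the replicate block and GC normalization together it was 0.90 (SE 0.20, adjusted p = 0.0317), 1 of 5 genes called in the table (0.0168%), so that this setting alone gave BMI1 a call.

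BMI1 shares its exons with COMMD3-BMI1, a read-through transcript annotated on the same strand, and RSEM divides their reads by estimation. COMMD3-BMI1 had 378 normalized counts in parental cells, 370 and 178 in untreated clones 3 and 4, and 468 and 187 in the treated clones. Summed with it, BMI1 had 1290, 1123.9, 867.7, 2139.6 and 1269.6 in the same order, and the log2 ratio of treated to untreated cells was 0.93 in clone 3 and 0.55 in clone 4. COMMD3, the upstream gene of this pair, had 663 counts in parental cells, 687 and 132 in the untreated clones, and 866 and 267 in the treated clones. In clone 4 the counts of COMMD3 and of the read-through transcript were therefore lower than in clone 3, by more than those of BMI1. The division of reads at this locus was not tested.

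The other 8 genes had smaller fitted fold changes with treatment. CBX6 was higher in treated cells in both clones, by 0.35 in clone 3 and 0.32 in clone 4 on the log2 scale, and had a fitted log2 fold change of 0.32 (SE 0.20, adjusted p = 0.9999 in DESeq2). CBX2 was higher by 0.44 and 0.16, RING1 by 0.26 and 0.12, and RNF2 by 0.24 and 0.11, all of them not past the test. CBX7, CBX8, PHC1 and PHC2 pointed in opposite directions in the 2 clones, with fitted fold changes between -0.08 (PHC2) and 0.13 (CBX7). In the fit without the replicate block, the 95% interval of PHC2 was -0.47 to 0.31 and that of RNF2 was -0.23 to 0.55. A 2-fold effect of treatment lies outside both. The intervals of CBX2 (-0.466 to 1.055) and CBX7 (-0.952 to 1.211) include such an effect.

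**Figure D5:**
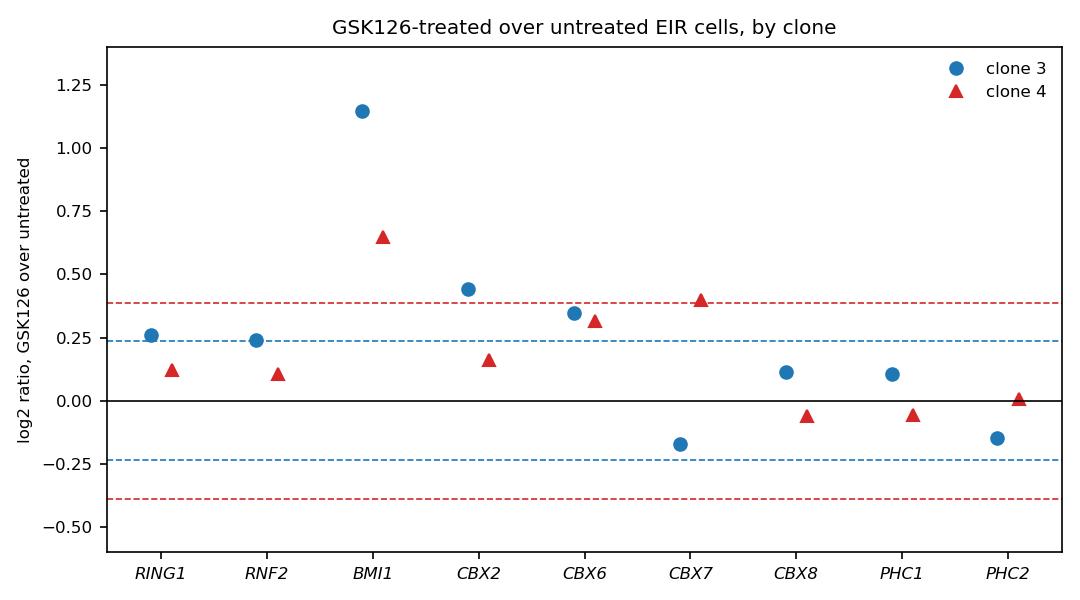
Log2 ratio of GSK126-treated to untreated normalized counts for the 9 genes in clone 3 (blue circles) and clone 4 (red triangles), with dashed lines at 1 SD of the same ratio over expressed genes in each clone. BMI1 lies at 1.15 in clone 3 and 0.65 in clone 4, above the lines of both clones.

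Other genes were taken from fixed lists of PRC1 subunits and related proteins. Of 6 genes in the table listed with canonical PRC1, 2 were higher and 1 was lower in EIR than in parental cells in DESeq2. Their median log2 fold change was 0.41. Over all genes tested, 25.5% were called in DESeq2, 18.6% with GC normalization and 8.48% in edgeR. PHC3 was higher, at 1684 counts in the parental library and 2893, 3637, 2999 and 4241 in untreated clone 3, untreated clone 4, treated clone 3 and treated clone 4 (log2 fold change 1.03, SE 0.28, adjusted p = 0.0022). SCML2, a PRC1-associated MBT domain protein, was higher by 0.64 (adjusted p = 0.0295), and by 0.33 (adjusted p = 0.3914) with GC normalization. SFMBT1, another MBT domain protein, was lower, at -0.77 (SE 0.21, adjusted p = 0.0018). It stands in this list as a related protein, and whether it belongs to canonical PRC1 was not tested. With GC normalization only SFMBT1 was still called among the 6 (-0.73, adjusted p = 0.0019), and PHC3 was at 0.57 (adjusted p = 0.2170). In edgeR, too, SFMBT1 alone was called (adjusted p = 0.0444), with PHC3 at adjusted p = 0.0668 and SCML2 at 0.1213.

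Variant PRC1 complexes hold another PCGF protein and RYBP or YAF2 in place of a CBX protein. Of 24 such genes, 2 were higher and 2 were lower in EIR cells in DESeq2, against 25.5% of all genes tested. Their median log2 fold change was -0.03. PCGF5, a partner of the ligases in variant PRC1, was higher by 0.86 (SE 0.34, adjusted p = 0.0461), with 574 counts in the parental library and 831 to 1294 in EIR cells, and E2F6, a DNA-binding partner of PCGF6 complexes that is named here after its values were seen, was higher by 0.63 (adjusted p = 0.0114). KDM2B, which brings a variant complex to unmethylated CpG islands, was lower at -0.89 (SE 0.23, adjusted p = 0.0014), and DCAF7, a WD repeat protein, at -0.72 (SE 0.18, adjusted p = 4.90e-04). In edgeR KDM2B and DCAF7 were called (adjusted p = 0.0380 and 0.0379), and PCGF5 and E2F6 were not (0.1413 and 0.0773). PCGF5 has 34.3% GC and was at 0.07 with GC normalization, where DCAF7 (-0.60, adjusted p = 0.0119) and E2F6 (0.60, adjusted p = 0.0256) were the 2 of the 24 called and KDM2B was at -0.54 (adjusted p = 0.1486). RYBP and YAF2 did not pass (0.30 and 0.31). Between the clones, 9.81% of all genes tested were called in DESeq2 with size factors. Only L3MBTL2, a subunit of the PCGF6 complex, was called among the PRC1 genes of these lists. It had 1142 and 1015 counts in the libraries of clone 3, 709 and 682 in those of clone 4 and 870 in parental cells (log2 fold change of clone 4 over clone 3 -0.64, SE 0.21, adjusted p = 0.0346). With GC normalization that call was lost (-0.52, adjusted p = 0.0692). PHC3, SCMH1, SCML1, BCOR, USP7 and CSNK2A2 were then called higher in clone 4, with adjusted p from 0.0117 (USP7) to 0.0482 (SCML1). Over all genes tested, 5.83% were called higher in that setting. In edgeR L3MBTL2 (adjusted p = 0.0314) and SCML1 (0.0405) were called.

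Genes linked to the removal of ubiquitin from H2A, both enzymes and other proteins, were examined for the opposing activity. Of 9 such genes, 8 received an adjusted p, and 2 were higher and 2 were lower in EIR cells in DESeq2. Over all genes tested, 25.5% were called. The median log2 fold change of the 8 was -0.29. USP16, an H2A deubiquitinase, showed the largest fold change among the called genes of these 3 lists. It had 1391 normalized counts in the parental library and 3642, 5381, 4565 and 3506 in untreated clone 3, untreated clone 4, treated clone 3 and treated clone 4. All 4 EIR values lay above the parental one (log2 fold change 1.62, SE 0.30, adjusted p = 2.64e-06 in DESeq2, adjusted p = 0.0333 in edgeR), and with GC normalization USP16 was still called (1.14, adjusted p = 4.60e-04). MYSM1, another H2A deubiquitinase, was higher by 1.01 (SE 0.28, adjusted p = 0.0028), from 1294 counts in parental cells to 2162 to 3146 in EIR cells, did not pass in edgeR (adjusted p = 0.0681), and was at 0.41 (adjusted p = 0.4070) with GC normalization. FOXK1 and FOXK2, forkhead proteins that bind the BAP1 deubiquitinase complex, were lower at -0.92 and -0.72 (adjusted p = 3.06e-04 and 0.0021). Both were also called in edgeR (adjusted p = 0.0305 and 0.0414), against 8.48% of all genes tested there. FOXK1 and FOXK2 were at -0.49 and -0.35 with GC normalization and not called. BAP1 itself did not pass (-0.24, adjusted p = 0.2476).

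Textbook target genes of Polycomb repression did not move one way. Of 10 such genes, 9 received an adjusted p in the comparison of EIR with parental cells. In DESeq2, 1 was higher and 1 was lower, against 25.5% of all genes tested that were called. The log2 fold change was above 0 for 7 of the 10 and below 0 for 3. The median of the 9 was 0.49, against 0.003 over all genes tested. The genes named from this list were chosen after their values were seen. CDKN2B, the cell cycle inhibitor p15, had 35 counts in the parental library and 158 to 192 in EIR cells (log2 fold change 2.27, SE 0.36, adjusted p = 1.60e-08 in DESeq2, and 2.23 with GC normalization), but it overlaps an antisense gene and the use of strand in counting is not stated. HOXD10 had 151 counts in the parental library and 3, 0, 2 and 1 in EIR cells. CDKN2A, which encodes p16 and ARF, had 60 counts in parental cells, 1156 and 1457 in clone 3, and 123 and 153 in clone 4, and was lower in clone 4 than in clone 3 (log2 fold change -3.13, SE 0.24, adjusted p = 3.00e-36 in DESeq2). CCND2, the cyclin D2 gene, was also lower in clone 4 than in clone 3, with 3574 counts in parental cells, 30951 and 28143 in clone 3, and 309 and 287 in clone 4. They were the 2 called between the clones in DESeq2 among the 8 target genes that received an adjusted p there. Over all genes tested, 9.81% were called. GATA4 had 147 and 129 counts in clone 3 and at most 1 in the other libraries.

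Of the 9 genes, CBX2 had the largest range over the 5 libraries (1.32 on the log2 scale, among those expressed at 100 or more normalized counts on average). Over the 11564 expressed genes, the 5 whose centred log2 profile lay closest to that of CBX2 were AGAP3 (Euclidean distance 0.144), ENSG00000205663, SEMA4F, DVL1 and LRRC8E (0.180). AGAP3 had 1581 normalized counts in the parental library and 702, 762, 908 and 782 in untreated clone 3, untreated clone 4, treated clone 3 and treated clone 4. With 5 libraries, and 1 of them parental, this likeness mostly restates a low value in EIR cells.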

How the data were processed

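RNA-seq libraries of total RNA were prepared by the authors with a stranded kit and sequenced as 75 bp paired-end reads. The authors aligned reads to hg19 with bowtie2 and estimated reads per gene with RSEM on an Ensembl annotation. The RSEM version is 1.2.3 in the submitters' processing notes, whereas the paper's methods name a later one. The release of the annotation is not given in the sources used here. The use of strand in counting is not stated. In the table that the authors deposited the values are RSEM expected counts, unnormalized and already rounded (0 were not whole). Of its columns, 4 name a clone and the remaining 1 was assigned to parental cells.

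GENCODE release 44 on GRCh37 gave symbols, coordinates, length and GC content of the canonical transcript, and matched 95.8% of identifiers. Unmatched identifiers held 3.06% of counts. Promoter windows came from RefSeq.

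DESeq2 1.42.0 (Wald test, all genes, size factors) in R 4.3.3 gave the main results, and edgeR 4.0.16 (quasi-likelihood, TMM), other scalings, a filter of 10 counts in 2 libraries, GC normalization, summed counts and leaving out each EIR library were alternatives. GC normalization used a loess of log2 ratios on GC content (span 0.3) as normalization factors. The code was tested on simulated data. Ratios per library used a pseudocount of 0.5. Intervals (95%, Wilson) cover counting error only, since reads without molecular identifiers are not independent. P-values measure the spread between these libraries, which may be technical.

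The genes and lists were chosen with earlier results of these data known. All 9 genes were named, then up to 12 genes of the PRC1 and H2A deubiquitination lists past the threshold by absolute log2 fold change. The 5 genes of nearest profile to the most variable of the 9 were named as well. A gene of the fixed lists is not reported here. Other names were chosen after values were seen or for their role. Libraries of a clone come from the same cell line, and their deviations from the group means correlated at 0.86 over expressed genes, so the clone number was used as a replicate block for treatment.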

Additional observations from a re-analysis of the deposited data

Results flagged for a closer look

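For 4 of the 9 genes the GSK126-treated library lay on opposite sides of the untreated library in the 2 clones, which drew attention to them, and the difference between the clones was not tested. The log2 ratio of treated to untreated normalized counts was -0.172 in clone 3 and 0.400 in clone 4 for CBX7, 0.113 and -0.0615 for CBX8, 0.106 and -0.0547 for PHC1, and -0.147 and 0.0076 for PHC2. With 1 library on each side of a ratio, each of them was smaller than the SD of the ratio over expressed genes in that clone (0.235 in clone 3 and 0.387 in clone 4), except that of CBX7 in clone 4. No library lay apart from the other 3 EIR libraries by Dixon's criterion in any of the 9 genes, where chance gives about 1 in 20.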

How the results depend on the processing

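In EIR against parental cells, PHC2 kept its call in 10 of 11 alternatives, CBX2 in 7 and RNF2 in 6. Of the 9 genes, 1 was called (PHC2, against 3) both in edgeR and with the 2 libraries of each clone summed, where the whole table gave 1797 and 1914 genes against 4157. With GC normalization the log2 fold changes of BMI1 and RNF2 turned to -0.0935 and -0.0569 in EIR cells, that of RNF2 to -0.113 in clone 3 and -0.0024 in clone 4, and that of CBX8 to 0.192 in clone 4. Between the clones those of CBX2 and RING1 turned to 0.107 and 0.0951. For clone 4 total count scaling turned BMI1 to 0.0560. For clone 3 edgeR called 6 of the 9 genes. The causes beyond GC content were not tested.

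For treatment, edgeR called 0 genes in the table, the replicate block 4, the replicate block with GC normalization 5 (1 of the 9 genes, BMI1) and the replicate block in edgeR 0. With that block and GC normalization CBX8 and PHC1 were at -0.0104 and -0.0039. The replicate block changed no other call among the 9 genes.

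Without each EIR library in turn, BMI1 ranged from -0.123 to 0.358 in EIR against parental cells, from -0.277 to 0.877 for clone 3, from -0.398 to 0.240 for clone 4 and from -0.931 to 0.202 between the clones. Between the clones CBX2 ranged from -0.276 to 0.153, CBX6 from -0.0473 to 0.284, RING1 from -0.208 to 0.0355, RNF2 from -0.0995 to 0.126 and PHC2 from -0.0589 to 0.104. For treatment CBX7 ranged from -0.180 to 0.375, CBX8 from -0.168 to 0.202 and PHC1 from -0.110 to 0.139. The number of the 9 genes called ranged from 0 to 2 for clone 3 (0 without its treated and 1 without its untreated library) and from 1 to 3 for clone 4 (1 without its treated library or either library of clone 3). It was 3 with all libraries in both. Over the table it ranged from 1983 to 5023 genes for clone 3, from 3339 to 4623 for clone 4, from 831 to 2800 between the clones and from 1 to 25 for treatment. The lowest counts of the first 3 comparisons came without a library of clone 3, the 1 for treatment without the treated clone 4 library, the 2800 without the untreated clone 4 library and the 25 without the untreated clone 3 library. Where an arm then held 1 library, that library is assumed to vary like the others, and between the clones the treatment term was left out, since 3 libraries cannot carry it.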
